A study of Bos taurus with 45 samples.

Results

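The genes described here are the Ensembl bovine identifiers ENSBTAG00000043544 to ENSBTAG00000043584, a run of 41 consecutive numbers taken as the genes of the mitochondrial genome. The count table held 40 of them among its 24616 genes. The rule uses the identifiers' numbers alone and no measured value. The table pairs no identifier with a gene name, and 0 of its identifiers could be matched to the supplied RefSeq gene table, so the members are given by identifier and no member is called by a gene name. The identifier just below the run in the table, ENSBTAG00000043542, and the one just above it, ENSBTAG00000043587, both had 0 counts in the 45 libraries.

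The mitochondrial genome is a small circular DNA inherited through the egg and present in many copies per cell. It encodes subunits of the respiratory chain complexes and of ATP synthase, the ribosomal RNAs of the mitochondrial ribosome and a set of transfer RNAs, while all other mitochondrial proteins come from nuclear genes. Both strands are transcribed as long precursors that are cut into the single RNAs, many of which lie next to each other with no gap, and in the early embryo most mitochondria still descend directly from those of the oocyte.

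RNA came from 45 bovine demi-blastocysts, each one portion of a manually bisected day 7 blastocyst. The embryos were produced in vitro with sperm sorted to give females and were cultured without serum between day 5 and day 7, either with 10 ng/ml recombinant bovine CSF2, a cytokine given because it can raise the survival of blastocysts after transfer, or with vehicle only. The other portion of each blastocyst went to a recipient cow, and an uneven cut sent the smaller or more damaged portion to sequencing. Recipients of 29 embryos, here called not established, were not pregnant at day 30 (14 with CSF2 and 15 with vehicle). Recipients of 6 embryos, called lost, were pregnant at day 30 and no longer at day 60 (1 with CSF2 and 5 with vehicle), and those of 10 embryos, called maintained, were pregnant on both days (5 with CSF2 and 5 with vehicle). A replicate is thus an embryo, and all p-values measure the spread between embryos. Each portion holds trophectoderm and inner cell mass cells together, and no marker of either could be checked because the identifiers have no names. In such bulk RNA fewer mitochondria-rich cells and less mitochondrial RNA per cell cannot be told apart.

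The 40 libraries with 1000000 counts or more, called deeper here, held between 3906252 and 10326829 counts, and 5 shallow libraries held between 137808 and 853817. Between 1080 and 6120 genes outside the run had 5 or more counts in a deeper library, against 36 to 487 in a shallow one. The shallow libraries were not established replicates 8 and 27, both with CSF2, and not established replicate 29, lost replicate 5 and maintained replicate 8, all with vehicle. No pair of the 45 libraries held identical counts.

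The 40 members fell into 15 that were read in almost every embryo and 25 that were hardly read at all. Each of the 15 abundant members had 5 or more counts in at least 43 of the 45 libraries, 13 of them in all 45, with at least 670889 counts in total. Of the other 25, 9 had no count in any library, 7 had 1 to 5 counts in all and 9 had at least 24, which together made up 0.00596% of the members' counts. For comparison, the RefSeq annotation of the bovine mitochondrial chromosome holds 37 genes, of which 13 are protein-coding, 2 encode ribosomal RNAs and 22 encode transfer RNAs. The table thus has more members than RefSeq has mitochondrial genes, and which member is which gene cannot be read from the files. The protein-coding and ribosomal RNA genes number 15 together, as do the abundant members, but whether they are the same genes was not tested. In RefSeq the transfer RNA genes span 60 to 75 bases, the ribosomal RNA genes 955 to 1571 and the protein-coding genes 201 to 1821. Some neighbours share bases, such as ATP8 and ATP6, which encode ATP synthase subunits and overlap by 40 bases, and ND4L and ND4, which encode complex I subunits and overlap by 7. Nuclear copies of mitochondrial DNA can also attract such reads. How the counting treated overlaps, copies and strand was not given in the sources used here, so the split of counts between neighbouring members is uncertain. The library kit also depleted a custom set of bovine transcripts, and which ones was not stated.

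The 40 members together held 24.2% of all counts of the 45 libraries. Their share of a deeper library's counts was 24.2% ± 5.46 (SD, n = 40), with a lowest value of 15.5%, a median of 23.6% and a highest of 37.2%. The lowest was not established replicate 7, with CSF2, and the highest was not established replicate 4, with vehicle. By mean CPM, a gene's counts divided by the library's total and scaled to 1000000 counts, 9 of the 10 highest genes of the table were members, as were 13 of the first 20 and 15 of the first 50. Of 120 genes with 5 or more counts in each deeper library, 15 were members. In each deeper library, at least 15.5% of the counts thus came from this run of genes.

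ENSBTAG00000043561 led the members, with 53803 ± 11382 CPM (SD, n = 40 deeper libraries) and a range of 28017 to 81192 CPM. ENSBTAG00000043563 followed with 35903 ± 11427 CPM, and ENSBTAG00000043550 with 28759 ± 9864 CPM. These 3 members held 48.8% ± 4.03 (SD, n = 40) of the members' counts in a deeper library, between 38.3% and 60.0%. ENSBTAG00000043571 (18823 ± 5849 CPM), ENSBTAG00000043584 (17117 ± 4904 CPM), ENSBTAG00000043577 (15503 ± 4643 CPM) and ENSBTAG00000043558 (15062 ± 4272 CPM) came next, and ENSBTAG00000043546 (12844 ± 4986 CPM), ENSBTAG00000043560 (12409 ± 3398 CPM) and ENSBTAG00000043570 (9477 ± 3376 CPM) closed the first 10. The last 5 abundant members had means between 2821 CPM, in ENSBTAG00000043556, and 5751 CPM, in ENSBTAG00000043567. CPM is not divided by gene length, and no length is paired with a member, so this is an order of read numbers and not of transcript numbers.

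At most steps of that order the mean fell by no more than the larger SD of the pair. That measure does not use the fact that both members were read in the same libraries. The mean fell by more than the SD of both members at 3 steps only, from ENSBTAG00000043561 to ENSBTAG00000043563, from ENSBTAG00000043550 to ENSBTAG00000043571 and from ENSBTAG00000043570 to ENSBTAG00000043567. Within the deeper libraries the first member of these steps exceeded the next in 39, 35 and 39 of 40. At the other steps the first member was higher in 21 to 31 of 40. ENSBTAG00000043568 and ENSBTAG00000043564, in contrast, differed by 52.3 CPM in the mean, and the first was higher in 21 of 40 libraries. From the first to the last abundant member the mean CPM changed by 19.1 times.

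**Figure D1:**
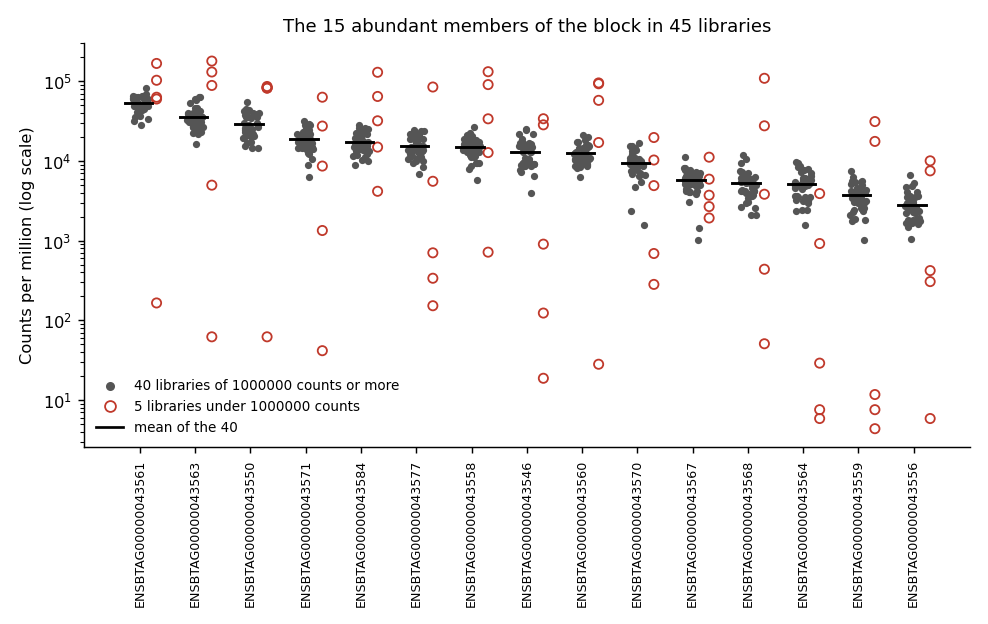
Level of each of the 15 abundant members in every library, in CPM on a log axis, with filled points for the 40 deeper libraries, a line at their mean and open points for the 5 shallow libraries. The members are placed by the mean of their filled points, from about 53803 CPM down to 2821 CPM, and the filled points of neighbours overlap. The open points reach far above and below the filled ones.

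In the median, the abundant members varied less between embryos than other genes that were always read. The coefficient of variation of CPM over the 40 deeper libraries had a median of 31.9% in the 15 members (21.2% to 40.9%) and of 59.1% in the other 105 genes with 5 or more counts in each of these libraries (20.4% to 107%). The members are among the highest genes of the table, and the other genes were not matched to them by level. ENSBTAG00000043561 was the steadiest member, and its highest and lowest deeper libraries differed 2.90 times. The largest such ratio of a member was 11.2. The members also moved together. Spearman's rho over the 40 libraries had a median of 0.47 in the 105 pairs of members, was above 0 in 104 of them and reached 0.84, while in the 5460 pairs of the other genes the median was 0.03. These values describe the libraries, and the CPM of all genes in a library share 1 denominator. Set against the members' own sum in place of the library total, every one of the 15 varied less, with coefficients of variation between 14.02% and 35.3%. That sum contains each member, so it is not independent of the level set against it.

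The members kept much the same order of counts from one deeper library to the next, and another order in most of the shallow ones. In the 40 deeper libraries ENSBTAG00000043561 was the leading member 39 times and ENSBTAG00000043563 once, in not established replicate 17. The order of the 15 members in a deeper library had a Spearman's rho between 0.83 and 0.98 with their mean order in the other deeper libraries. For the shallow not established replicates 8, 27 and 29 rho was 0.41, 0.38 and 0.83, for lost replicate 5 it was 0.51 and for maintained replicate 8 it was 0.63. ENSBTAG00000043561 led in none of these 5. ENSBTAG00000043584 held 42.7% of the members' counts in not established replicate 8, ENSBTAG00000043558 held 19.1% in not established replicate 27, and ENSBTAG00000043563 held between 21.3% and 25.2% in the other 3.

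Each member's percent of the members' counts in the shallow libraries lay mostly outside the range of all deeper ones. Of the 15 abundant members this held for 15, 11 and 9 in the not established replicates 8, 27 and 29, for 12 in maintained replicate 8 and for 8 in lost replicate 5. By level, ENSBTAG00000043568 ranged from 2116 to 12040 CPM in the deeper libraries. It stood at 108937 CPM in not established replicate 27, 27592 CPM in lost replicate 5 and 50.8 CPM in maintained replicate 8. ENSBTAG00000043559 had 2 counts in not established replicate 27 and 3 in lost replicate 5, and ENSBTAG00000043564 had 2 in not established replicate 27 and 4 in maintained replicate 8. The shallow libraries thus differed from the deeper ones and from each other in which members were read.

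**Figure D2:**
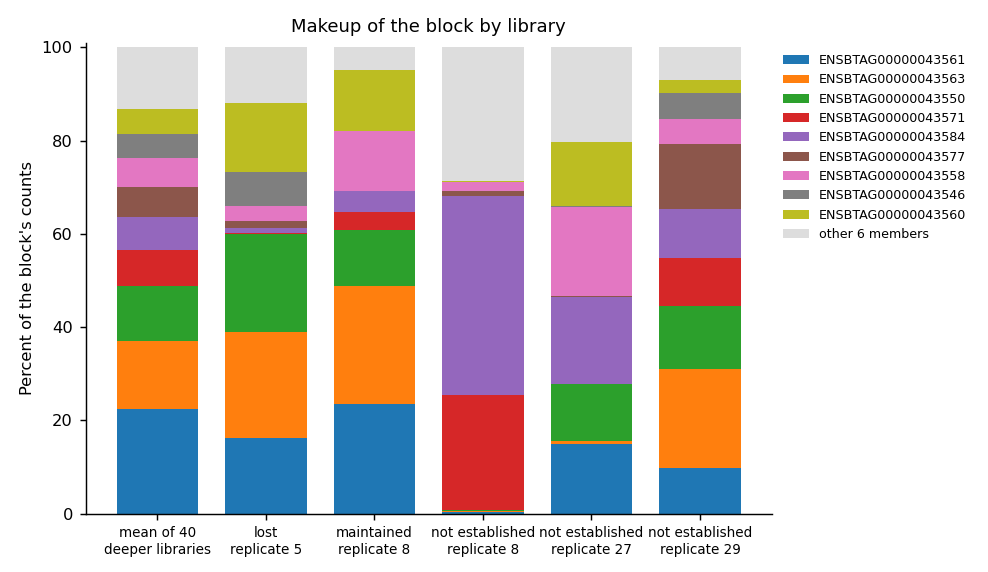
Percent of the members' counts held by each of the 9 highest members and by the other 6 abundant members together, as the mean of the 40 deeper libraries and in each shallow library. ENSBTAG00000043584 takes 42.7% in not established replicate 8, and its mean in the deeper libraries is 7.04%.

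The share of counts held by the members overlapped between the pregnancy outcomes. With all 45 libraries it was 26.9% ± 12.3 (SD, n = 29) in not established embryos, 25.2% ± 9.88 (SD, n = 6) in lost embryos and 28.3% ± 15.9 (SD, n = 10) in maintained embryos. The extremes were shallow libraries, at 3.50% in not established replicate 8 and at 39.0% in lost replicate 5, 71.0% in maintained replicate 8 and 69.0% and 61.3% in the not established replicates 27 and 29. In the deeper libraries the share was 24.8% ± 5.04 (SD, n = 26; lowest 15.5%, median 24.7%, highest 37.2%) in not established embryos. The 5 deeper lost libraries stood at 19.1%, 19.8%, 17.8%, 36.8% and 18.7%, a mean of 22.4% ± 8.06 (SD). Lost replicate 4, at 36.8%, was far above its group, and among the deeper libraries only not established replicate 4 was higher. The 9 deeper maintained libraries had a mean of 23.6% ± 5.46 (SD; lowest 16.8%, median 23.5%, highest 33.6%). All outcome groups overlapped.

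The differences in mean share between outcomes, over all or over the deeper libraries, were smaller than 1 SD of either group, but the one of lost embryos rested on 1 library. Maintained minus not established was 1.49 percentage points with all libraries and -1.21 with the deeper ones, and lost minus not established was -1.65 and -2.36. The 4 deeper lost embryos other than replicate 4 lay between 17.8% and 19.8%, with a mean of 18.8% ± 0.845 (SD). Without replicate 4 the difference of lost from not established embryos was -5.955 points in the deeper libraries, which is more than the SD of either group, and their medians differed by -5.75 points over all libraries and -5.56 over the deeper ones. For maintained minus lost the values were 3.14 and 1.16 points, with 4.75 in the deeper libraries without lost replicate 4, and for the 16 embryos with any pregnancy minus the 29 without they were 0.312 and -1.62. The difference of maintained, or of any pregnancy, from not established thus turned its sign with the 5 shallow libraries. By medians, any pregnancy minus not established was -2.31 points over all libraries and -3.63 over the deeper ones. A share over the members was given no test.

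By culture treatment the share was lower with CSF2, by less than the spread between embryos. It was 23.9% ± 12.1 (SD, n = 20) with CSF2 and 29.4% ± 12.8 (SD, n = 25) with vehicle over all libraries. In the deeper libraries it was 22.5% ± 4.21 (SD, n = 18; lowest 15.5%, median 22.5%, highest 28.97%) with CSF2 and 25.7% ± 6.03 (SD, n = 22; lowest 17.8%, median 24.7%, highest 37.2%) with vehicle, a difference of -3.14 points. In 3 of the 18 CSF2 libraries the share was below every vehicle library, and in none above the highest one.

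The maintained embryos showed a wider difference between treatments than the not established ones, and whether the share differs more in them was not tested. In the 5 maintained CSF2 embryos, replicates 1, 2, 3, 9 and 10, the share was 16.8%, 25.8%, 18.1%, 18.2% and 22.3%. The deeper maintained vehicle embryos, replicates 4, 5, 6 and 7, stood at 28.2%, 25.8%, 33.6% and 23.5%. The means were 20.3% ± 3.73 (SD) and 27.8% ± 4.35 (SD), 7.53 points apart, which was more than the SD of either group; 4 of the 5 CSF2 embryos lay below every vehicle embryo. With the shallow maintained replicate 8 the vehicle mean was 36.4% ± 19.7 (SD, n = 5). Among not established deeper embryos the share was 23.7% ± 4.17 (SD, n = 12) with CSF2 and 25.7% ± 5.68 (SD, n = 14) with vehicle, 1.99 points apart. Only 1 lost embryo had CSF2, at 19.1%.

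**Figure D3:**
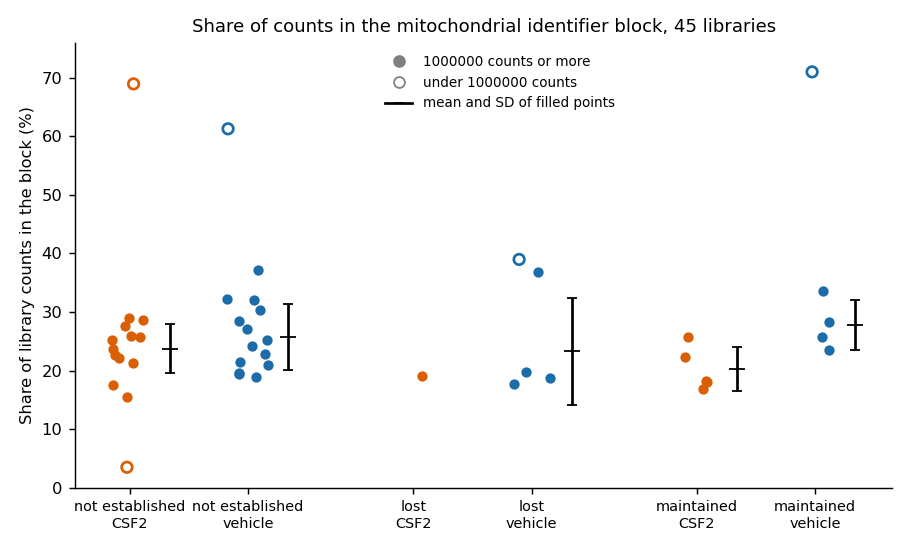
Share of each library's counts held by the members, in percent, by pregnancy outcome and culture treatment, with filled points for libraries of 1000000 counts or more, open points for shallow libraries and bars for the mean and SD of the filled points. The filled points lie between 15.5% and 37.2%, with overlap between the outcomes, and the open points range from 3.50% to 71.0%.

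Single members were tested with edgeR's quasi-likelihood test in a fit over all genes, with Benjamini-Hochberg adjustment over every gene tested and a call at an adjusted p below 0.05. Of the 40 members, 19 passed the filter on low counts, the 15 abundant ones and ENSBTAG00000043544, ENSBTAG00000043549, ENSBTAG00000043565 and ENSBTAG00000043573. The other 21 were not tested. On counts simulated for maintained against not established, this test missed most of the changed genes with either set of libraries. With all 45 libraries its false calls outnumbered its true ones, and with the deeper libraries they did not. A count of 0 called therefore does not show that levels were equal, and a call with all 45 libraries is weak evidence. In the simulation edgeR called no unchanged member with either set of libraries. Apart from the changed genes, however, every simulated library had the same expected makeup. The simulation therefore could not show whether the differing makeup of the shallow libraries leads to calls of members. It was drawn once per set, for that comparison only, and its changed genes were taken from all genes tested. Its changes were larger than the fitted changes of the abundant members in the deeper libraries. What share of changed abundant members the test would miss was not tested. All comparisons of outcome share the not established, lost or maintained libraries, so they are not independent of each other.

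The fit of outcome and treatment to the deeper libraries called no member between outcomes. For maintained against not established edgeR called 0 of 19 members, with 0 at an unadjusted p below 0.05, while 0.134% of all genes tested were called. For lost against not established it called 0 of 19, with 1 at an unadjusted p below 0.05 and 0.0401% of all genes called. For maintained against lost it again called 0 of 19, with 1 at an unadjusted p below 0.05 and 0% of all genes called. For any pregnancy against not established it called 0 of 19, with 0 at an unadjusted p below 0.05 and 0.615% of all genes called. Of all genes tested, 8.75%, 17.4%, 16.6% and 7.57% had an unadjusted p below 0.05 in these comparisons, in that order. DESeq2 and limma voom also called 0 members in each of these comparisons, with the deeper libraries and with all 45. With all 45 libraries, however, DESeq2 gave no adjusted p for 10 of the 19 members, except for any pregnancy, where 0 lacked one. With the deeper libraries this was so for 1 member, and again for 0 in any pregnancy. A member without an adjusted p could not be called.

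The fitted changes of the 15 abundant members between outcomes were small in the deeper libraries. For maintained against not established they lay between -0.31 and 0.05 on the log2 scale, with a median of -0.07, where the median over all genes was -0.01. Lost against not established gave -0.60 to 0.12 with a median of -0.32, and the median over all genes was -0.49. Maintained against lost gave -0.43 to 0.51 with a median of 0.26, and over all genes 0.53. For any pregnancy against not established all 15 were below 0, between -0.32 and -0.05, with a median of -0.15 and 0.05 over all genes. The SE of these changes had a median between 0.22 and 0.38.

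With all 45 libraries the same changes spread more widely and had larger errors. The 15 abundant members spanned -1.86 to 2.75 on the log2 scale for maintained against not established, -1.36 to 4.84 for lost against not established, -6.70 to 4.11 for maintained against lost and 0.12 to 3.53 for any pregnancy against not established. Their SE had a median between 1.01 and 1.40. In this fit edgeR called 0 of 19 members for maintained against not established (2 at an unadjusted p below 0.05, 0.0579% of all genes called), 0 for lost against not established (9, and 0.868% of all genes) and 0 for any pregnancy against not established (6, and 0.738% of all genes). The share of all genes at an unadjusted p below 0.05 was 8.09%, 17.2% and 8.05% in the same order. The members with the smallest p were ENSBTAG00000043559 (log2 change 2.75, edgeR adjusted p = 0.23), ENSBTAG00000043568 (4.84, edgeR adjusted p = 0.0513) and ENSBTAG00000043560 (3.53, edgeR adjusted p = 0.304), in that order, and over their alternatives the adjusted p ranged from 0.0196, 7.04e-07 and 0.00408 up to at least 0.999. With no filter on low counts edgeR called 1 of 31 members for maintained against not established (12.7% of all genes called), 5 for lost against not established (4.16%), 5 for any pregnancy (23.2%) and 1 for maintained against lost (2.98%). Single libraries also moved the counts. Without not established replicate 27, 6 members were called for lost against not established (0.882% of all genes) and 4 for any pregnancy (0.564%). Without maintained replicate 8 or not established replicate 8, 5 were called for lost against not established (0.854% and 0.913% of all genes), 3 without not established replicate 29 (0.796%) and 2 without lost replicate 1 (1.26%). Without any one of lost replicates 3 and 4, maintained replicates 3 and 10 and not established replicate 25, 1 was called, with 0.776% to 1.24% of all genes. Without lost replicate 5, 1 was called for maintained against not established (0.347% of all genes), and the change of ENSBTAG00000043568 for lost against not established was -0.66. Without maintained replicate 8 the change of ENSBTAG00000043559 was -0.36.

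The direction of the members also depended on the scaling and on the test. In edgeR with TMM scaling, all 15 abundant members were above 0 for any pregnancy over 45 libraries and below 0 in the deeper ones. With library totals in place of TMM factors, 5 of 15 were above 0 over 45 libraries, and with DESeq2's size factors 7 of 15. Limma voom also used TMM factors, and it weighted each library by an estimate of its quality. With limma voom 0 of 15 were above 0 over 45 libraries and 1 of 15 in the deeper ones. The part of the weights in this was not tested. The TMM factors lay between 0.911 and 1.67 in the deeper libraries and between 0.0267 and 0.493 in the shallow ones.

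**Figure D4:**
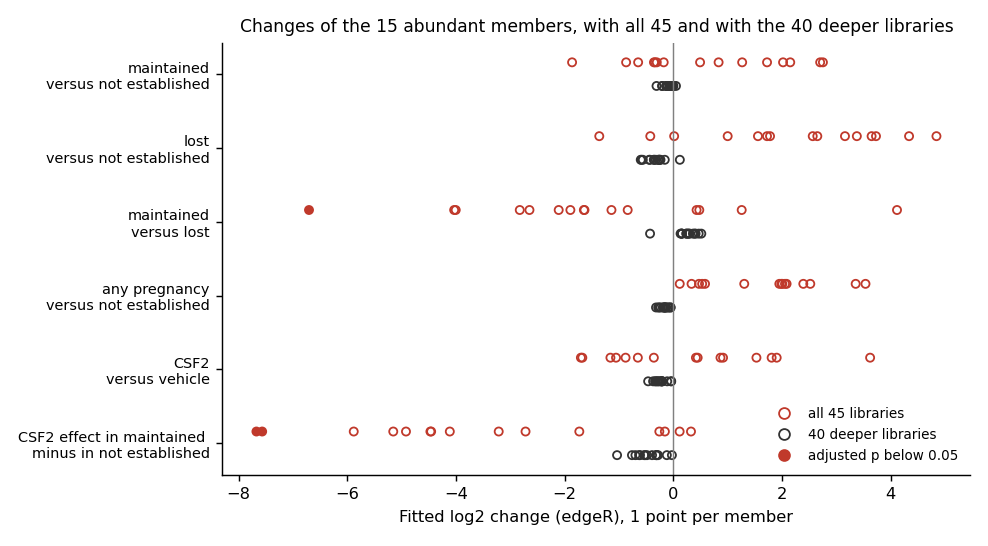
Fitted log2 change (edgeR) of each of the 15 abundant members in 6 comparisons, with 1 point per member, in red for the fit on all 45 libraries and in black for the fit on the 40 deeper ones; filled points have an adjusted p below 0.05. With all libraries the points spread from -7.67 to 4.84 and 3 are filled, while with the deeper libraries they lie between -1.04 and 0.51 and none is filled.

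Maintained against lost was the comparison of outcomes with a called member when all 45 libraries entered. ENSBTAG00000043568 fell in maintained against lost embryos by 6.70 on the log2 scale (SE 1.58, edgeR adjusted p = 0.0081). It was the 1 member called of 19, with 7 at an unadjusted p below 0.05. Of all genes, 0.463% were called and 16.7% had an unadjusted p below 0.05. In the 6 lost embryos, replicates 1 to 6, ENSBTAG00000043568 stood at 4269, 7036, 7194, 12040, 27592 and 3051 CPM. In the 10 maintained embryos it ranged from 50.8 to 6119 CPM with a median of 4050 CPM. The lowest maintained and the highest lost embryo were the shallow replicates 8 and 5, and the other embryos of both groups overlapped. Without maintained replicate 8 or not established replicate 27, 2 members were called (0.42% and 0.448% of all genes), and without not established replicate 8, 3 (0.29%). The call of ENSBTAG00000043568 ended without lost replicate 5 (log2 change -1.38, edgeR adjusted p = 0.775) and without maintained replicate 1 (-6.57, edgeR adjusted p = 0.0604). In the deeper libraries the change was -0.43 (edgeR adjusted p = 0.885). Over all 45 libraries it was -1.74 with library totals in place of TMM factors (edgeR adjusted p = 0.168) and -2.64 with DESeq2's size factors (edgeR adjusted p = 0.5). Over the 55 alternatives that gave an adjusted p, by edgeR, DESeq2 or limma voom, that p ranged from 3.75e-05 to 0.953 and 44 of them kept the call. Most were the 45 fits that left out 1 library, of which 2 lost the call. The other 10 changed the test, scaling, filter, terms or depth, and 9 of them lost the call.

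Between CSF2 and vehicle no member was called with either set of libraries. With the deeper libraries edgeR called 0 of 19 members (2 at an unadjusted p below 0.05), and 0.669% of all genes were called. With all 45 it called 0 of 19 (2 at an unadjusted p below 0.05), and 0.767% of all genes were called. An unadjusted p below 0.05 was found for 9.62% of all genes with the deeper libraries and for 10.8% with all 45. DESeq2 and limma voom called 0 members in both sets, but DESeq2 gave no adjusted p for 10 of 19 members with all 45 libraries and for 1 with the deeper ones. With no filter on low counts edgeR called 5 of 31 members over all libraries, and 24.7% of all genes. The member with the smallest p over all libraries was ENSBTAG00000043568, with a log2 change of 3.62 and an edgeR adjusted p of 0.0924 (0.0069 to 1.0 over its alternatives). Its change in the deeper libraries was -0.32. Without not established replicate 27, where it stood at 108937 CPM, the change over the remaining libraries was -0.03. It was called, as 1 member, without any one of the 6 lost libraries, maintained replicate 8 or not established replicate 8, where 0.406% to 1.96% of all genes were called.

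All 15 abundant members had a lower mean CPM with CSF2 than with vehicle over the deeper libraries. The ratio of the means lay between 0.724 and 0.981 with a median of 0.857. The fitted log2 changes were below 0 in 15 of 15, between -0.46 and -0.04 with a median of -0.23, where the median over all genes was 0.01. With DESeq2's size factors 13 of 15 were below 0 in these libraries. With all 45 libraries 7 of 15 were below 0 by TMM factors and 14 of 15 by library totals. Because the members are counted from the same libraries, 15 members below 0 are not 15 separate observations.

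ENSBTAG00000043563 had the smallest p of the abundant members in this comparison. It ranged from 16267 to 45911 CPM with a median of 29654 CPM in the 18 deeper CSF2 embryos and from 23078 to 63741 CPM with a median of 37022 CPM in the 22 deeper vehicle embryos. The groups overlapped widely. The log2 change was -0.37 (SE 0.15, edgeR adjusted p = 0.254). ENSBTAG00000043561, the leading member, had 53243 ± 10043 CPM (SD, n = 18) with CSF2 and 54262 ± 12587 CPM (SD, n = 22) with vehicle and was the member whose mean changed least.

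Among maintained embryos the lower level with CSF2 was plainest in ENSBTAG00000043571. It stood at 12685, 16841, 13022, 6358 and 8849 CPM in the CSF2 embryos, replicates 1, 2, 3, 9 and 10, and at 25779, 18057, 29111 and 21675 CPM in the deeper vehicle embryos, replicates 4 to 7. The groups did not overlap. This was so for 1 of the 15 abundant members, and among the 120 genes read in every deeper library 1.67% had all CSF2 embryos below all vehicle embryos. The mean CPM was lower with CSF2 for 15 of 15 members in the maintained embryos, with ratios from 0.488 to 0.948, and for 13 of 15 in the not established embryos, with ratios from 0.706 to 1.03.

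The difference between these 2 effects of CSF2 was tested as an interaction over maintained and not established libraries, in which 17 members passed the filter. With the deeper libraries edgeR called 0 of 17 members (3 at an unadjusted p below 0.05), and 0% of all genes were called. Of all genes, 5.35% had an unadjusted p below 0.05. All 15 abundant members were below 0, between -1.04 and -0.03 with a median of -0.49, where the median over all genes was 0.21. ENSBTAG00000043571 had the largest change, -1.04 (SE 0.32, edgeR adjusted p = 0.829). By library totals over all libraries 10 of 15 were below 0.

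With all libraries the interaction was called for ENSBTAG00000043558 (log2 change -7.57, SE 1.69) and ENSBTAG00000043560 (-7.67, SE 1.71), each with an edgeR adjusted p of 0.0173. These were 2 of 17 members, with 9 at an unadjusted p below 0.05. Of all genes, 0.0652% were called and 5.87% had an unadjusted p below 0.05. ENSBTAG00000043558 stood at 11222, 16656, 9413, 8021 and 14270 CPM in the maintained CSF2 embryos and at 15642, 17279, 18641, 15042 and 90793 CPM in the vehicle ones, the last being the shallow replicate 8. ENSBTAG00000043560 stood at 92999 CPM in that library and between 8577 and 15991 CPM in the other 9 maintained embryos. Among not established CSF2 embryos the shallow replicate 27 stood at 131759 and 95251 CPM for the 2 members, and the shallow replicate 8 at 717 and 28.1 CPM. Without maintained replicate 8 the changes were -3.28 (edgeR adjusted p = 0.747) and -2.96 (edgeR adjusted p = 0.858). Without maintained replicate 3 (edgeR adjusted p = 0.122 for both) or not established replicate 8 (edgeR adjusted p = 0.13 and 0.1) the calls also ended. Without not established replicate 27 they were -4.43 (edgeR adjusted p = 0.0503) and -4.79 (edgeR adjusted p = 0.0446), and in the deeper libraries -0.39 and -0.28. Over the 41 alternatives edgeR's adjusted p ranged from 7.43e-05 to 1.0 for each member, with 35 and 36 of them below 0.05. Of these alternatives 39 left out 1 library, and the call ended in 4 and 3 of them. The other 2, library totals and the deeper libraries, kept neither call.

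The low members were read in few embryos. ENSBTAG00000043544, the first identifier of the run, had 151 of its 415 counts in not established replicate 9 and reached 5 counts in 5 of 26 not established, 0 of 5 lost and 2 of 9 maintained deeper embryos. ENSBTAG00000043565 had 51.1% of its counts, 424, in not established replicate 16 and reached 5 counts in 1 of 18 deeper CSF2 embryos, with 23 counts in all, and in 6 of 22 vehicle ones, with 806 counts. Its fitted change with CSF2, -4.28 (edgeR adjusted p = 0.24), had the smallest p of all 19 members in the deeper libraries. ENSBTAG00000043573 reached 5 counts in 10 of 26 not established, 0 of 5 lost and 2 of 9 maintained deeper embryos, and 26.1% of its counts, 259, came from not established replicate 28. ENSBTAG00000043549 was the most evenly read, with 5 or more counts in 10 of 26, 3 of 5 and 4 of 9. None of these 4 was called in either set of libraries, and a fitted change of a gene read in so few embryos rests on those few.

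The level of the abundant members was also set against the number of other genes with 5 or more counts in the same library, over the 40 deeper libraries. Pearson's r was below 0 for 13 of the 15 members, between -0.47 and 0.07 with a median of -0.29. Among the other 105 genes read in every deeper library r was below 0 for 46, with a median of 0.02. ENSBTAG00000043584, the last identifier of the run, had the lowest r of the members, -0.47 (permutation p = 0.00202), and a Spearman's rho of -0.46 (permutation p = 0.00271). Adjusted over all 120 genes these p-values were 0.0808 and 0.096 by permutation, and 0 members passed 0.05. Without the 2 libraries farthest from the median number of genes, maintained replicate 3 with 6120 and not established replicate 25 with 1080, r was -0.45. A member's CPM and the number of genes come from 1 library and are not independent in their making, and the part of RNA amount or quality in the relation was not tested.

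Split by culture treatment, r was below 0 for 15 of 15 members in the 22 vehicle libraries, between -0.62 and -0.17 with a median of -0.48. The other 105 genes had a median of 0.01 there, with 46 below 0. ENSBTAG00000043584 had r = -0.62 (permutation p = 0.0026, adjusted p = 0.078 over 120 genes) and rho = -0.57 (permutation p = 0.00598, adjusted p = 0.131), and r = -0.57 without the 2 farthest libraries. For the 18 CSF2 libraries r lay between -0.36 and 0.48 with a median of -0.03, and 8 members were below 0. There ENSBTAG00000043584 had r = -0.30 (permutation p = 0.234, adjusted p = 0.596) and rho = -0.21 (permutation p = 0.413, adjusted p = 0.809), and r = -0.11 without the 2 farthest libraries. With either treatment 0 members passed adjustment, and whether the relation differs between the treatments was not tested.

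**Figure D5:**
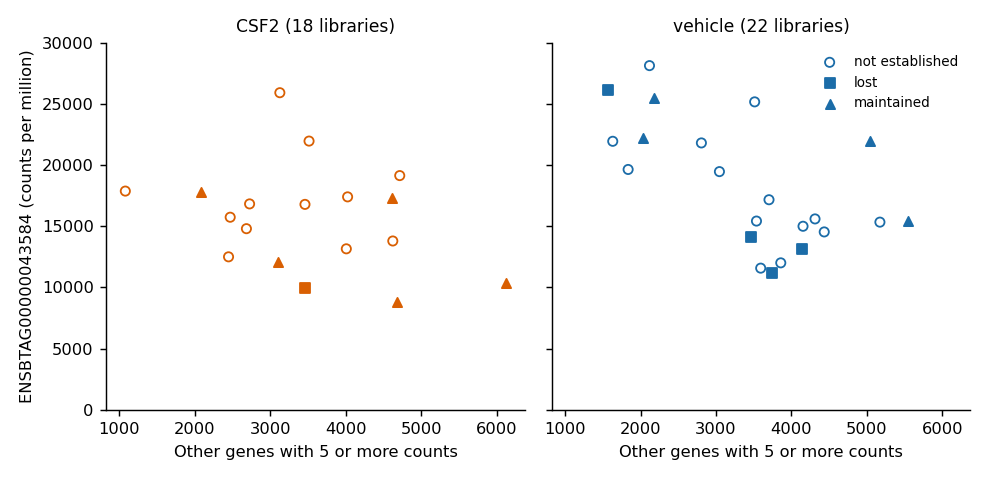
Level of ENSBTAG00000043584 in CPM against the number of other genes with 5 or more counts, with 1 point per deeper library, CSF2 libraries on the left and vehicle libraries on the right, and a symbol for each pregnancy outcome. Pearson's r is -0.62 in the vehicle points and -0.30 in the CSF2 points, and neither passed adjustment over 120 genes.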

How the data were processed

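Total RNA was extracted from each demi-blastocyst, and the kit was the Ovation SoLo RNA-Seq kit of NuGEN in a version for bovine transcripts, per the labels' protocols. What the authors deposited is a gene by library table of raw counts for 45 libraries. Builds named in the submitters' processing notes are bosTau8 and UMD3.1, and edgeR is the package named there. Aligner, counter and treatment of duplicate reads were not given in the sources used here.

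Groups were read from the pregnancy status and culture labels. Members are the identifiers of the run; they and the lists were chosen with earlier results of these data known. CPM and shares were computed here from the deposited counts and library totals. Counts were tested with edgeR 4.0.16 in R 4.3.3 (filterByExpr, TMM factors, robust quasi-likelihood test), with outcome and treatment as terms and 6909 genes tested over 45 libraries or 7476 over the 40 with 1000000 counts or more. The interaction had 4603 and 5010 genes. Tested on simulated data, edgeR and DESeq2 made more false than true calls over 45 libraries, DESeq2 also over the deeper ones, and all 3 tools missed most changed genes. Alternatives used DESeq2 1.42.0, limma 3.58.1 voom with sample quality weights, library totals, no filter, fewer terms, the replicate number as a block, and the omission of 1 library at a time. Relations used permutation tests with 100000 resamples, adjusted over the 120 genes read in every deeper library and not over the members alone (scipy 1.17.1, Python 3.11.15). The depth per library, 137808 to 10326829 counts, sets the precision, and the 5 shallow libraries are the least precise.

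Named were the 10 members with the highest mean share over all libraries, each member called, and the member with the smallest p in each comparison; other members named were chosen after their values were seen. Lists of nuclear respiratory genes and cell type markers need gene names and were not used. Sequences of the members are not given because no table pairs them with the identifiers. Replicate numbers are shared by the groups in the labels, but same-numbered embryos deviated together in 1 of 10 pairs only (correlations -0.02 to 0.43), so the numbers were not taken to pair embryos.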

Additional observations from a re-analysis of the deposited data

Results flagged for a closer look

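In groups of 4 to 10 libraries, the share held by the members and the levels of the 10 leading members and of those with a called or smallest p were screened for a library far from the rest of its group. Of 58 such groups 19 had one, 13 with all 45 libraries and 6 with the deeper ones, and at the 95% critical value used chance gives about 1 in 20; the groups overlap and are not independent.

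With all libraries, maintained replicate 8 stood far above the other 9 maintained embryos in its share of counts, 71.0%, and again among the maintained vehicle embryos alone. The same library was far above the others in ENSBTAG00000043561 (167291 CPM), ENSBTAG00000043563 (179199 CPM), ENSBTAG00000043550 (85967 CPM), ENSBTAG00000043558 (90793 CPM), ENSBTAG00000043560 (92999 CPM) and ENSBTAG00000043559 (31203 CPM). It held 137808 counts, the fewest of all libraries, and 36 other genes with 5 or more counts. Lost replicate 5, with 687331 counts, was far above the other lost embryos in ENSBTAG00000043550 (81843 CPM), ENSBTAG00000043560 (57600 CPM) and ENSBTAG00000043568 (27592 CPM) and far below them in ENSBTAG00000043559 (4.36 CPM). The part of depth in these levels was not tested.

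Lost replicate 4 is a deeper library, with 4317470 counts and 1569 other genes with 5 or more counts. It was far above the other deeper lost embryos in its share of counts, 36.8%, and again among the vehicle ones alone. It was also far above them in ENSBTAG00000043563 (63741 CPM), ENSBTAG00000043584 (26169 CPM), ENSBTAG00000043546 (25217 CPM) and ENSBTAG00000043570 (16988 CPM), the last also with all 6 lost embryos. No other lost embryo had so few other genes read, apart from the shallow replicate 5.

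The effect of CSF2 differed between maintained and not established embryos, by edgeR's interaction test over all libraries, for ENSBTAG00000043558 (log2 difference -7.57) and ENSBTAG00000043560 (-7.67), each with an adjusted p of 0.0173. In the deeper libraries the differences were -0.39 and -0.28 and not called.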

How the results depend on the processing

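The counts of members called moved with the setting, and the cause was not tested beyond the libraries named. With no filter on low counts edgeR called 1 member for maintained against not established and 5 each for lost against not established, any pregnancy against not established and CSF2 against vehicle; in that setting 31 members were tested, and 12.7%, 4.16%, 23.2% and 24.7% of all genes were called. Without the treatment term 3 members were called for lost against not established (1.19% of all genes), 1 for any pregnancy (1.19%) and 0 for maintained against lost (0.463%), and without the outcome term 1 for CSF2 (2.3%). At an adjusted p below 0.10, 3 were called for lost against not established (1.27% of all genes) and 1 for CSF2 (1.97%). The 1 call for maintained against lost became 0 under DESeq2, under DESeq2's size factors, under library totals and under limma voom, each with all 45 and with the deeper libraries, and with the deeper libraries alone. For maintained against lost, DESeq2 gave no adjusted p for 10 of 19 members with all 45 libraries and for 1 with the deeper ones. Its 0 covers the other members only. The 2 calls of the interaction became 0 under library totals and with the deeper libraries.

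With each library left out in turn the count of members called ranged from 0 to 1 for maintained against not established, 0 to 6 for lost against not established, 0 to 3 for maintained against lost, 0 to 4 for any pregnancy, 0 to 1 for CSF2 and 0 to 3 for the interaction. The difference in mean share ranged from -3.251 to 2.994 points for maintained against not established, -4.41 to -0.149 for lost against not established, -1.599 to 5.9 for maintained against lost, -2.612 to 1.816 for any pregnancy and -7.918 to -3.812 for CSF2. By medians over all libraries these were -0.579, -5.75, 5.17, -2.31 and -3.31 points. In the deeper libraries, with each maintained or lost library left out, lost against not established ranged from -5.955 to -1.201, lowest without lost replicate 4, and maintained against lost from -0.094 to 4.75.

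Changes with all 45 libraries turned sign elsewhere. That of ENSBTAG00000043559 for maintained against not established was -0.13 with the deeper libraries under DESeq2's size factors and under DESeq2, -0.07 with the deeper libraries under TMM and under library totals, and between -0.36 and 3.35 with a library left out. That of ENSBTAG00000043560 for any pregnancy was -0.20 with the deeper libraries under DESeq2's size factors and under DESeq2, -0.11 under library totals there, -0.15 under TMM there, and -0.10 and -0.13 under limma voom with all and with the deeper libraries. That of ENSBTAG00000043568 for CSF2 was -0.29 with the deeper libraries under DESeq2's size factors and under DESeq2, -0.36 under library totals there, -0.32 under TMM there, -0.24 and -0.37 under limma voom with all and with the deeper libraries, and between -0.03 and 5.56 with a library left out. That of ENSBTAG00000043568 for lost against not established lay between -0.66 and 5.34 with a library left out. Over all genes the median log2 change of maintained against lost was 0.52 with TMM factors and 0.67 with DESeq2's size factors, and that of the interaction 0.39 with TMM factors and 0.69 with library totals.

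With the replicate number as a block, over replicates 1 to 10 of maintained and not established embryos, 0 of 15 members were called with all libraries (the change of ENSBTAG00000043559 was -0.46) and 1 with the deeper ones, where that change was -0.46 too. The called member was ENSBTAG00000043577 (log2 change -0.78, SE 0.17, edgeR adjusted p = 0.00726), the 1 gene called of 2644 (0.0378%), with 6 members at an unadjusted p below 0.05. Of all genes in that fit, 1.55% had an unadjusted p below 0.05. The numbers are not known to pair embryos, and in 1 of 10 pairs, replicate 8, both embryos shallow, the correlation of the deviations was above 0.1 and highest with its own number.

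The depth limits these results most in the 5 shallow libraries, where single members rested on 2 to 4 counts. The deeper libraries, the fits restricted to them under DESeq2 and limma voom, the fit with the block there, and the shares with libraries left out there were chosen or added with the data known.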
